A study of Homo sapiens with 6 samples.

Results

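Androgens act on prostate epithelium through a nuclear receptor that binds DNA as a dimer and raises transcription of a characteristic set of genes. Besides the kallikreins, which encode secreted proteases such as prostate-specific antigen, that set holds chaperones that feed back on the receptor, elongation factors, enzymes of lipid and polyol metabolism, ion channels and proteins of the secretory route. Described here are 35 such genes, chosen as known androgen-induced genes with the kallikreins left out, among the 35554 genes of the count table.

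The genes were compared between LNCaP, an established androgen-responsive cell line derived from metastatic human prostate cancer (parental, n = 3), and LNCaP-enzaR, its derivative resistant to enzalutamide (n = 3). Enzalutamide is an inhibitor of the androgen receptor. By the study's methods the resistant cells arose under continuous exposure to the drug and were afterwards maintained at a reduced concentration, and LNCaP was kept in serum-containing medium. The growth labels of all 6 samples describe culture in flasks to below confluence and give no starvation step. Starvation of serum and calcium is described for the study's cultures that received recombinant proteins, which are not analysed here. Each line is 1 culture history, the titles number the libraries as biological replicates, the growth labels give triplicate flasks, and the sources used here do not say whether the drug was present at harvest or whether the derivative is 1 clone.

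Libraries held 77759122 to 98616465 counts, so 3 counts corresponded to 0.0302 to 0.0382 CPM (counts scaled to 1e+06 per library, with TMM factors, throughout). Mitochondrial genes took 6.72% to 7.06% of the parental counts and 14.7% to 15.5% of the LNCaP-enzaR counts. LNCaP-enzaR replicate 1 stood apart from the other replicates of its line (chi-square per degree of freedom 39.8 and 31.4, against 5.88 to 9.82 for the other pairs within a line), and values that turn on it are also given without it. Luminal prostate markers were abundant in both lines, with a summed level of 4608 to 4680 CPM in parental and 4015 to 4150 CPM in LNCaP-enzaR. Of the 9 luminal markers, 3 fell and 2 rose, with a median log2 fold change of 0.41. The list holds an androgen target, the prostate-specific antigen gene KLK3, which averaged 1190 CPM in parental and 141 CPM in LNCaP-enzaR. That fall is larger than the fall of the sum. The basal keratin KRT5 and the basal factor TP63 held 0 to 2 counts in any library. The 5 basal markers together gave 0.934 to 1.87 and 1.34 to 1.81 CPM, with 1 of the 2 tested lower (log2 fold change -1.18) and 1 higher (3.70). Neuroendocrine markers summed to 35.9 to 38.3 CPM in parental and 89.8 to 103 CPM in LNCaP-enzaR. Nearly all of that was ENO2, which averaged 34.4 and 91.3 CPM, and CHGA and INSM1 held at most 10 counts in any library, with 2 of the 3 tested markers higher and none lower. Fibroblast markers, 7 of 8 of which were in the table, summed to 14.7 to 17.9 and 8.27 to 9.03 CPM, with 1 of the 4 tested lower and 2 higher. The part of these shifts in the results that follow was not tested.

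Most of the androgen-induced genes were lower in LNCaP-enzaR. All 35 passed the filter on low counts, and 25 fell, 2 rose (NDRG1 and PLPP1) and 8 did not pass the threshold, which was an edgeR adjusted p of at most 0.05 over all genes tested together with a fold change of at least 1.5. Across the 19711 genes tested, 42.7% passed in either direction, 19.5% lower and 23.3% higher, so the lines differed broadly and 25 of 35 is to be read against a background of 19.5%. The median log2 fold change was -1.44 over the 35 genes and 0.01 over all genes tested. Summed over the 35 genes, the level was 5294 to 5361 CPM in the parental libraries and 3066 to 3142 CPM in LNCaP-enzaR. The fall was at least 4-fold for 11 genes, against 4.46% of all genes tested, and none rose by that much, against 7.65%. In 33 of the 35 the CPM of both lines did not overlap, where 70.6% of all genes tested gave the same. In bulk RNA, fewer cells expressing a gene and less of its RNA per cell cannot be told apart.

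Of the 8 genes that did not pass, 7 met the adjusted p alone, a criterion that 66.3% of all genes tested met. TSC22D3, MED28, CAMKK2 and HERC3 had fitted values below 0, and KLF9, ANKH and ABHD2 above it. APPBP2 met neither limit.

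**Figure D1:**
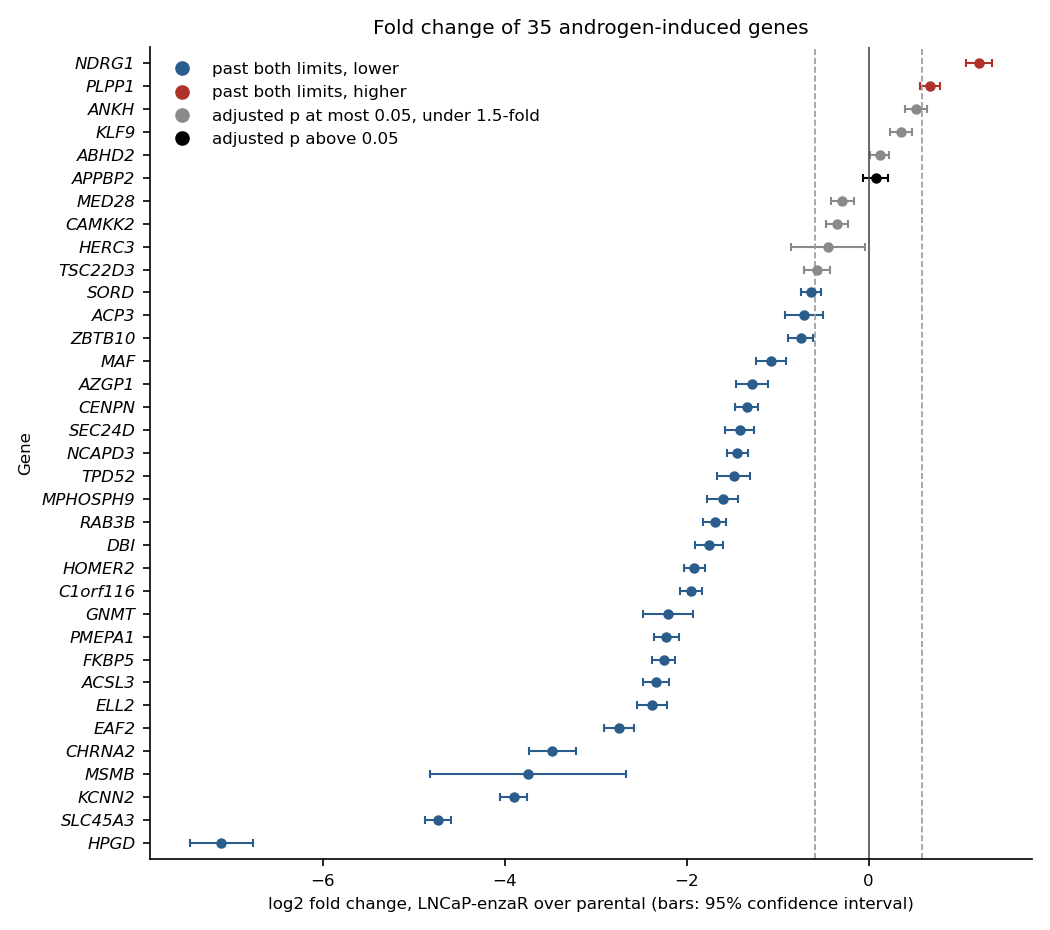
Log2 fold change of each of the 35 androgen-induced genes (vertical axis), LNCaP-enzaR over parental (horizontal axis), as fitted by edgeR with bars for the 95% confidence interval. Dashed lines mark 1.5-fold in each direction and colours give the result against both limits. The points run from HPGD at -7.11 to NDRG1 at 1.21, with 29 of 35 below 0.

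Because the genes share a regulator, sequences around their starts were examined. The androgen receptor recognises a palindrome whose consensus is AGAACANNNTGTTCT. Matches with at most 1 of the 12 fixed letters differing numbered 15241 in 2937.7 Mb of GRCh38, of which 566 differed at none. Within 50 kb of the gene start, 12 of the 35 genes (34.3%) had such a match, against 34.5% of all genes tested. Matches lay near 6 of the 25 genes that fell and 6 of the 10 others. The sequences below show the single exact match and examples from genes that fell, rose or did not pass, with capitals for the consensus letters that are present and lower case elsewhere, on the plus strand.
ANKH (in its intron, chr5:14842867-14842881, 28904 bases downstream of the start, exact): ggcactgAGAACAcaaTGTTCTgaacatt
TSC22D3 (in its intron, chrX:107767844-107767858, 9491 bases downstream): ttgggacAGcACAgtaTGTTCTgggccat
TSC22D3 (in an intron of another gene, chrX:107793864-107793878, 16529 bases upstream): ttttccaAGAACAtgcTGTTaTtaaaagt
ABHD2 (in its intron, chr15:89118062-89118076, 30610 bases downstream): aagagcaAGgACAtggTGTTCTtatatgc
PLPP1 (between genes, chr5:55558874-55558888, 23912 bases upstream): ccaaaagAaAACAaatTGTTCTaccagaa
C1orf116 (between genes, chr1:207010176-207010190, 22573 bases downstream): aatacacAGcACAcccTGTTCTttaaatg
MPHOSPH9 (in an intron of another gene, chr12:123264712-123264726, 20705 bases upstream): ccattaaAGAACAaagTGcTCTcagcctc
Coordinates are those of the 15-base match, distances run from its centre to the gene start, and 7 bases of flank are printed on each side. ANKH, which carries the exact match, and TSC22D3, which carries 4 matches, both stayed under 1.5-fold. A match is a description of letters and not of receptor binding.

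RefSeq promoters (GRCh38.p14, the 250 bases before the RefSeq start) were found for 25 of the 35 genes, 18 that fell and 7 others. All of these others did not pass the threshold, and NDRG1 and PLPP1, which rose, had no promoter here. For some genes the RefSeq start is not the gene start used for the palindrome, which is the outer end of the annotated gene. The KCNN2 promoter lies at chr5:114361820-114362069, with the gene start at 114055926. That of HERC3 lies at chr4:88523593-88523842, with the gene start at 88592434. These promoters are outside the window searched for the palindrome. Those of ABHD2 and HOMER2 are also apart from the gene start. An arm of the palindrome, AGAACA or TGTTCT, was in none of the 25, against 7.84% of 12234 promoters of tested genes, and the forkhead motif TGTTTAC was in none, against 2.06%, both strands being searched. The GC box GGGCGG was in 14 of 25, namely 10 of 18 and 4 of 7, against 64.5%. The CCAAT box ATTGG was also in 14 of 25, 11 of 18 among the genes that fell and 3 of 7 among the others, against 35%. A TATAAA box was in 1 promoter, that of MAF, against 6.18%, the hypoxia core ACGTG in 2, against 22.9%, and the cell cycle motif TTTGAA in 1, that of FKBP5, against 8.53%. Median GC content was 64.4% for the genes that fell, 71.2% for the others and 64.8% for all. The 3 promoters below are from a gene that fell and holds both boxes, from the gene with the highest parental level per length, and from the gene that met neither limit, each written in the direction of transcription with GC and CCAAT boxes in capitals.
EAF2 (chr3:121834959-121835208, plus strand): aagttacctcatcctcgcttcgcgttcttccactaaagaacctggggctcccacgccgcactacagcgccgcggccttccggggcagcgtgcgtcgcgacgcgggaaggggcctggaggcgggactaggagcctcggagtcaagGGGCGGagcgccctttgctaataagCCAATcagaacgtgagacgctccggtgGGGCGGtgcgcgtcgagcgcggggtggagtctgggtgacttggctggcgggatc
SLC45A3 (chr1:205680510-205680759, minus strand): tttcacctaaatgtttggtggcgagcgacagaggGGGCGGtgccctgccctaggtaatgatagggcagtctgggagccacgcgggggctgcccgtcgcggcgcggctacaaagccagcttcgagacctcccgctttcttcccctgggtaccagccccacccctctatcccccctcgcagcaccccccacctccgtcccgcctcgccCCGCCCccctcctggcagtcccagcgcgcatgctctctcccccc
APPBP2 (chr17:60526243-60526492, minus strand): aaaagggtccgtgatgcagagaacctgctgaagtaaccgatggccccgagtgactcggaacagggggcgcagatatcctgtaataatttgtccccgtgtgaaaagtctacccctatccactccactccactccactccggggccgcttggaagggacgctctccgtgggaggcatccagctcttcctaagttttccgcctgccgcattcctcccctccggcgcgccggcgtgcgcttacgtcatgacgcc
EAF2 holds GC and CCAAT boxes, SLC45A3 GC boxes alone, and APPBP2 neither.

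Among genes that feed back on steroid receptors or answer several steroids, FKBP5 (ENSG00000096060.15, chr6:35573585-35728583) fell and the other 2 stayed under 1.5-fold. FKBP5 encodes an Hsp90 co-chaperone that modulates steroid receptors. It measured 260, 260 and 271 CPM in the parental libraries and 51.6, 57.5 and 56.7 CPM in LNCaP-enzaR, a difference of -2.25 on the log2 scale (SE 0.0598, edgeR adjusted p = 6.16e-13). Every LNCaP-enzaR library was far below every parental one. TSC22D3 encodes GILZ, a leucine zipper protein best known as a glucocorticoid target, and measured 34.9, 35.3 and 33.1 CPM against 24.2, 22.4 and 23.2 CPM. Its log2 fold change of -0.57 (95% confidence interval -0.71 to -0.42, edgeR adjusted p = 2.93e-06) lay just outside the fold limit, and reached -0.60 without parental replicate 3 and -0.59 without LNCaP-enzaR replicate 1, which passed. KLF9, a Krüppel-like transcription factor also induced by glucocorticoids, measured 76.6, 78.2 and 78.1 CPM against 95, 105 and 99.1 CPM, a log2 fold change of 0.36 with groups that did not overlap. Of 15 tested genes in a list of 17 glucocorticoid response genes, 6 fell, 3 rose and 6 did not pass, with a median log2 fold change of 0.00. That median is the value of FKBP4, a co-chaperone gene, and the list also holds NR3C1, the glucocorticoid receptor gene itself. It therefore does not describe target genes alone. The genes of the list with the smallest p-values were CEBPD, a leucine zipper transcription factor, at -5.65, and CRISPLD2, a secreted protein, at -3.94.

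In the group of transcription and its regulators, both genes of elongation factors fell, and so did the DNA-binding regulators MAF and ZBTB10. The transcription factor gene KLF9, placed in the group above, did not fall. ELL2, an elongation factor of the super elongation complex, measured 168, 153 and 163 CPM in parental and 27.4, 33.3 and 32.1 CPM in LNCaP-enzaR (log2 fold change -2.38, SE 0.0759, edgeR adjusted p = 3.32e-12). EAF2, which binds ELL proteins, measured 34.2, 34.4 and 34.1 CPM against 4.99, 5.49 and 4.87 CPM (log2 fold change -2.74, SE 0.0773, edgeR adjusted p = 1.09e-12). In both genes the 2 lines were widely separated and replicates lay close together. The leucine zipper transcription factor MAF fell from 33.0 ± 2.38 to 15.7 ± 0.770 CPM (SD, n = 3 each), a log2 change of -1.07. ZBTB10, a zinc finger transcriptional regulator, fell from 151 ± 1.26 to 90.1 ± 7.69 CPM, a log2 change of -0.74. MED28, a subunit of the Mediator complex, had 73.9 ± 2.7 and 60.6 ± 2.01 CPM, a log2 fold change of -0.29 that was under the fold limit. Among 10 other genes of the elongation complex, which include ELL, ELL3 and EAF1 of the relatives below, 1 fell and none rose. That gene was CCNT2, a cyclin of the P-TEFb kinase, at -0.70, and MLLT1, a chromatin reader of the complex, had -0.33.

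Signalling proteins went both ways. NDRG1, a stress-responsive protein linked to differentiation and also induced by hypoxia, measured 193, 222 and 204 CPM in parental and 512, 476 and 447 CPM in LNCaP-enzaR. The lowest LNCaP-enzaR library was above the highest parental one, and the difference on the log2 scale was 1.21 (SE 0.0659, edgeR adjusted p = 8.02e-10). Hypoxia response genes other than NDRG1 also went both ways, with 8 of 17 tested (18 listed) lower, 3 higher, 6 not past the threshold and a median of -0.50. LDHA, which encodes a lactate dehydrogenase subunit, had -1.40 and the pyruvate dehydrogenase kinase gene PDK1 had -1.78. The 3 that rose, named after their values were seen, were the aldolase gene ALDOC at 1.60, the carbonic anhydrase gene CA12 at 1.34 and the angiogenic factor gene VEGFA at 0.81. PMEPA1, a membrane adaptor for NEDD4-type ubiquitin ligases, measured 219, 219 and 218 CPM against 50.7, 45.4 and 44.5 CPM (log2 fold change -2.22, SE 0.062, edgeR adjusted p = 1.00e-12). HOMER2, a scaffold protein of glutamate receptor and calcium signalling, measured 205, 211 and 213 CPM against 56.8, 54.1 and 55.9 CPM (log2 fold change -1.92). Both were clearly separated between the lines. CAMKK2, the calcium-dependent kinase that activates AMPK, had 64.5 ± 1.41 and 50.8 ± 0.00507 CPM, a log2 fold change of -0.35 under the fold limit.

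The remaining genes of this group, APPBP2 and HERC3, did not pass. APPBP2, a substrate receptor of a cullin ubiquitin ligase, measured 70.6, 67.2 and 64.5 CPM in parental and 65.8, 74.5 and 73.5 CPM in LNCaP-enzaR. The groups overlapped through LNCaP-enzaR replicate 1 alone, the other values of that line being above all parental ones. The log2 fold change of APPBP2 was 0.08 with a 95% confidence interval of -0.06 to 0.22 (edgeR adjusted p = 0.304). It ranged from 0.04 to 0.14 as each library was left out, and APPBP2 passed the threshold in none of the 14 alternatives. Over the alternatives the adjusted p lay between 0.0106 and 0.658. HERC3, a ubiquitin ligase of the HERC family, was low at 2.73, 1.91 and 3.00 CPM against 2.11, 1.92 and 1.58 CPM, and the groups overlapped by a narrow margin. The fitted log2 fold change of -0.45 (edgeR adjusted p = 0.0499) became -0.62 without parental replicate 2 and then passed the threshold, with the adjusted p between 0.0082 and 0.201 over the alternatives. Exons of other genes cover 69.5% of the exonic bases of HERC3, so its counts are uncertain.

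**Figure D2:**
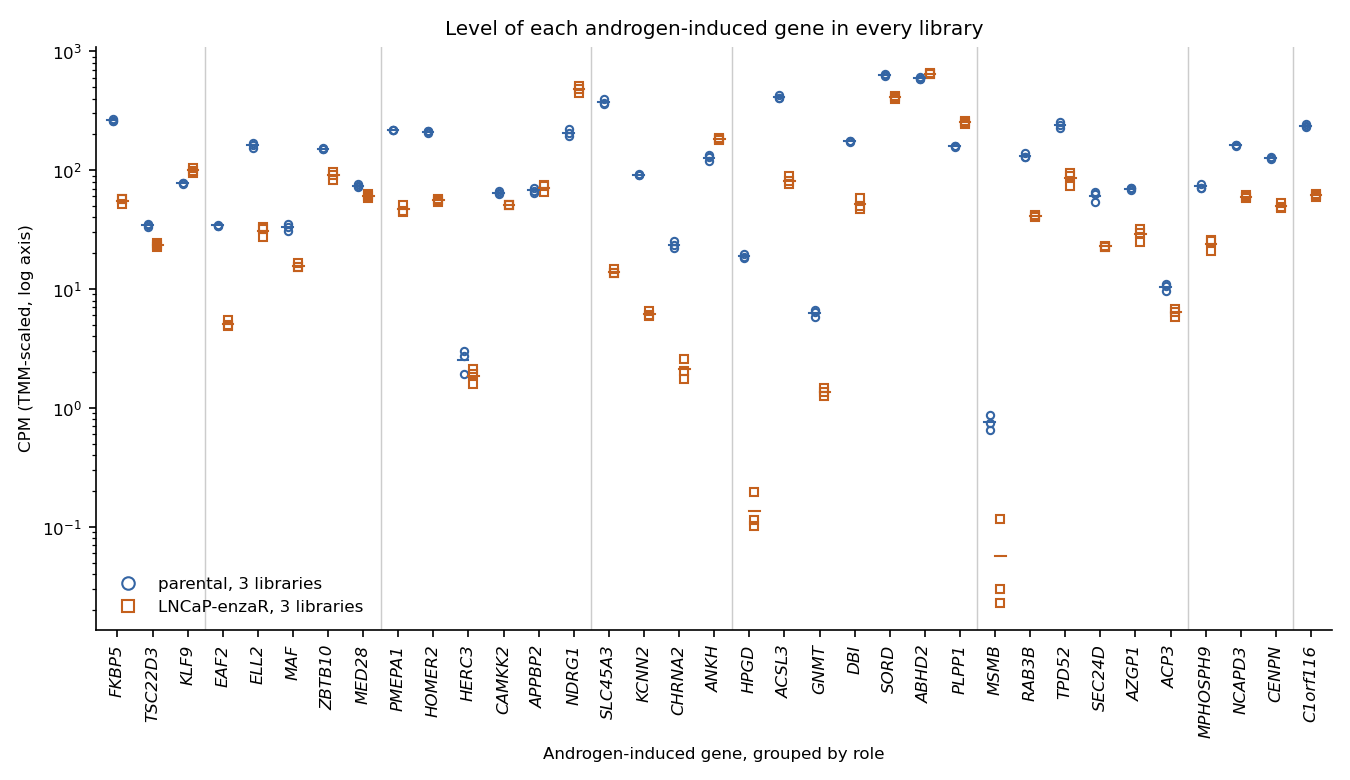
CPM of the 35 genes in every library on a log axis (vertical), with the genes grouped by role along the horizontal axis and separated by grey lines. Circles are parental libraries, squares are LNCaP-enzaR libraries and short bars are means. The symbols of both lines are apart for 33 genes and overlap for HERC3 and APPBP2.

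Channels and transporters contained some of the widest differences. SLC45A3 encodes prostein, a membrane transporter largely restricted to prostate, and measured 367, 357 and 393 CPM against 14.6, 13.7 and 13.7 CPM. What remained was 3.77% of the parental mean (log2 fold change -4.73, SE 0.0664, edgeR adjusted p = 1.85e-15). KCNN2, a small-conductance calcium-activated potassium channel, measured 90.4, 93.2 and 91.7 CPM against 6.47, 6.05 and 5.93 CPM, or 6.70% of the parental mean. CHRNA2, a nicotinic acetylcholine receptor subunit, measured 23.3, 22.1 and 25.1 CPM against 2.56, 2.05 and 1.75 CPM (log2 fold change -3.47, SE 0.12, edgeR adjusted p = 7.30e-12). ANKH, which exports pyrophosphate precursors from the cell, stood on the other side at 120, 128 and 134 CPM against 187, 183 and 179 CPM. All 3 LNCaP-enzaR values exceeded the parental ones, yet the log2 fold change of 0.53 (95% confidence interval 0.41 to 0.65, edgeR adjusted p = 1.29e-06) was under the fold limit. With upper-quartile scaling it was 0.63 and passed.

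Of the 7 enzymes and carriers of lipid and small molecule metabolism, 5 fell, 1 rose and 1 did not pass. HPGD encodes the dehydrogenase that begins prostaglandin breakdown, and its counts were 1832, 1652 and 1473 in parental and 17, 10 and 10 in LNCaP-enzaR. In CPM these were 19.8, 18.2 and 18.8 against 0.197, 0.113 and 0.101, which left 0.725% of the parental mean (log2 fold change -7.11, SE 0.159, edgeR adjusted p = 1.06e-13). ACSL3, a long-chain acyl-CoA synthetase of lipid droplets, measured 432, 406 and 401 CPM against 75.7, 88.5 and 80.6 CPM (log2 fold change -2.34, SE 0.0657, edgeR adjusted p = 1.05e-12). DBI, the acyl-CoA binding protein that carries the product of such enzymes, measured 171, 176 and 176 CPM against 58.0, 49.9 and 47.4 CPM (log2 fold change -1.75). Thus the synthetase and the carrier were both lower in every LNCaP-enzaR library than in any parental library. GNMT, a methyltransferase that consumes S-adenosylmethionine, fell from 6.32 ± 0.424 to 1.36 ± 0.110 CPM, a log2 change of -2.21. SORD, which oxidises sorbitol to fructose, measured 620, 636 and 647 CPM against 419, 400 and 410 CPM. Its log2 fold change of -0.63 was just past the fold limit and failed it at -0.53 with upper-quartile scaling.

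The 1 enzyme that rose was PLPP1, and ABHD2 was the 1 that did not pass. PLPP1, a phosphatase of phosphatidic acid and related lipids, measured 159, 157 and 159 CPM in parental and 261, 253 and 246 CPM in LNCaP-enzaR (log2 fold change 0.68, SE 0.0509, edgeR adjusted p = 2.66e-08). The gap between lines was wide against the spread of either, although 29.6% of the exonic bases of PLPP1 are shared with other genes. ABHD2, a serine hydrolase that acts on acylglycerols, was among the most abundant of the 35 at 583, 588 and 606 CPM against 642, 649 and 642 CPM. The groups did not overlap, but the log2 fold change was 0.12 (95% confidence interval 0.02 to 0.23, edgeR adjusted p = 0.0387), with adjusted p between 0.0012 and 0.165 over the alternatives. In a list of acyl-CoA, lipid phosphatase and prostaglandin genes, which shares genes with the relatives below, 1 of 12 tested (13 listed) fell and 5 rose. Among those that rose were ACSL4 at 1.76 and PLPP2 at 1.56 on the log2 scale. PTGS1 and PTGES also rose, but at only 4 to 59 and 0 to 28 counts per library.

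All 6 genes of secreted proteins and vesicle traffic fell. The secreted proteins were ACP3 (prostatic acid phosphatase), AZGP1 (zinc-alpha-2-glycoprotein) and MSMB (beta-microseminoprotein), which are major products of prostate secretion. ACP3 measured 11, 9.65 and 10.6 CPM against 5.86, 6.79 and 6.46 CPM (log2 fold change -0.71, SE 0.0953, edgeR adjusted p = 1.28e-05). AZGP1 measured 68.4, 70.1 and 71.3 CPM against 31.8, 29.5 and 24.9 CPM (log2 fold change -1.28). Neither gene had a LNCaP-enzaR library that reached the parental range. MSMB was scarce in both lines, with 81, 59 and 59 counts in parental and 10, 2 and 3 counts in LNCaP-enzaR. The fitted value of -3.75 on the log2 scale (SE 0.501, edgeR adjusted p = 1.23e-05) became -4.75 without LNCaP-enzaR replicate 1, which held most of the remaining counts. Of the traffic genes, RAB3B, a GTPase of regulated exocytosis, measured 130, 128 and 140 CPM against 40.2, 41.4 and 41.7 CPM (log2 fold change -1.69). TPD52, which takes part in vesicle and lipid droplet traffic, measured 256, 240 and 226 CPM against 73.8, 95.4 and 88.9 CPM (log2 fold change -1.48). SEC24D, a cargo-binding subunit of the COPII coat, measured 63.4, 64.8 and 54.2 CPM against 22.6, 23.2 and 22.8 CPM (log2 fold change -1.41). For all 3 traffic genes the highest LNCaP-enzaR value was well under the lowest parental value.

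The 3 genes that act in cell division fell by similar amounts. CENPN, a kinetochore protein that recognises centromeric nucleosomes, measured 129, 127 and 124 CPM against 49.3, 53.0 and 47.7 CPM (log2 fold change -1.34). NCAPD3, a subunit of condensin II, measured 162, 160 and 163 CPM against 58.9, 58.3 and 61.5 CPM (log2 fold change -1.44). MPHOSPH9, a centriole protein phosphorylated in M phase, measured 76.6, 71.0 and 70.9 CPM against 21.1, 25.6 and 25.3 CPM (log2 fold change -1.60). In each gene every LNCaP-enzaR library was below every parental one. Cell division genes outside the 35 fell as well, 25 of 26 with a median of -1.97, including the proliferation antigen MKI67 at -2.45 and the condensin I subunit NCAPH at -2.69. The part of this shift in the values of the 3 genes was not tested. C1orf116, known as specifically androgen-regulated gene, measured 236, 230 and 244 CPM against 62.6, 59.4 and 61.7 CPM (log2 fold change -1.95, SE 0.055, edgeR adjusted p = 1.09e-12).

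Related genes were next set beside the androgen-induced ones, as 40 paralogues or partners of 18 of them, chosen after the values had been seen. Some relatives, such as FKBP4, ELL, ELL3, EAF1 and NCAPD2, also belong to lists given above, so their values are not separate from those. Of the 38 tested, 7 fell, 9 rose and 22 did not pass, where 19.5% of all genes tested fell and 23.3% rose. The counts of relatives are thus close to those shares. FKBP4, the other large Hsp90 co-chaperone of this family, averaged 456 ± 8.23 and 457 ± 6.88 CPM (log2 fold change 0.00) where FKBP5 fell. The ELL2 paralogues ELL (0.04) and ELL3 (0.18) did not pass on the same scale, and the EAF2 paralogue EAF1 had 0.34, under the fold limit. The acyl-CoA synthetases ACSL4 (1.76) and ACSL6 (1.86) rose and ACSL1 (0.39) and ACSL5 (-0.09) did not pass, against -2.34 for ACSL3. For RAB3B the paralogue RAB3A rose from 36.7 ± 0.720 to 79.5 ± 5.99 CPM and RAB3D fell from 99.8 ± 1.97 to 57.0 ± 1.67 CPM. The KCNN2 paralogue KCNN1 rose from 0.212 ± 0.0602 to 2.92 ± 0.265 CPM, a low level in both lines. LDLRAD4, a close relative of PMEPA1, fell with it, from 25.8 ± 1.59 to 5.78 ± 0.134 CPM (log2 fold change -2.16). NCAPD2, the condensin I counterpart of NCAPD3, fell too, at -1.76. The HERC3 relatives HERC6 (-2.80) and HERC5 (-1.20) fell, while HERC4 (0.16) did not pass. Of the SLC45A3 relatives, SLC45A1 fell (-2.93) while SLC45A2 (5.89) and SLC45A4 (0.75) rose, with SLC45A1 and SLC45A2 low in both lines. Among COPII coat subunits SEC24A fell (-0.68), SEC24B had -0.54 and SEC24C had 0.05, each nearer to 0 than SEC24D.

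**Figure D3:**
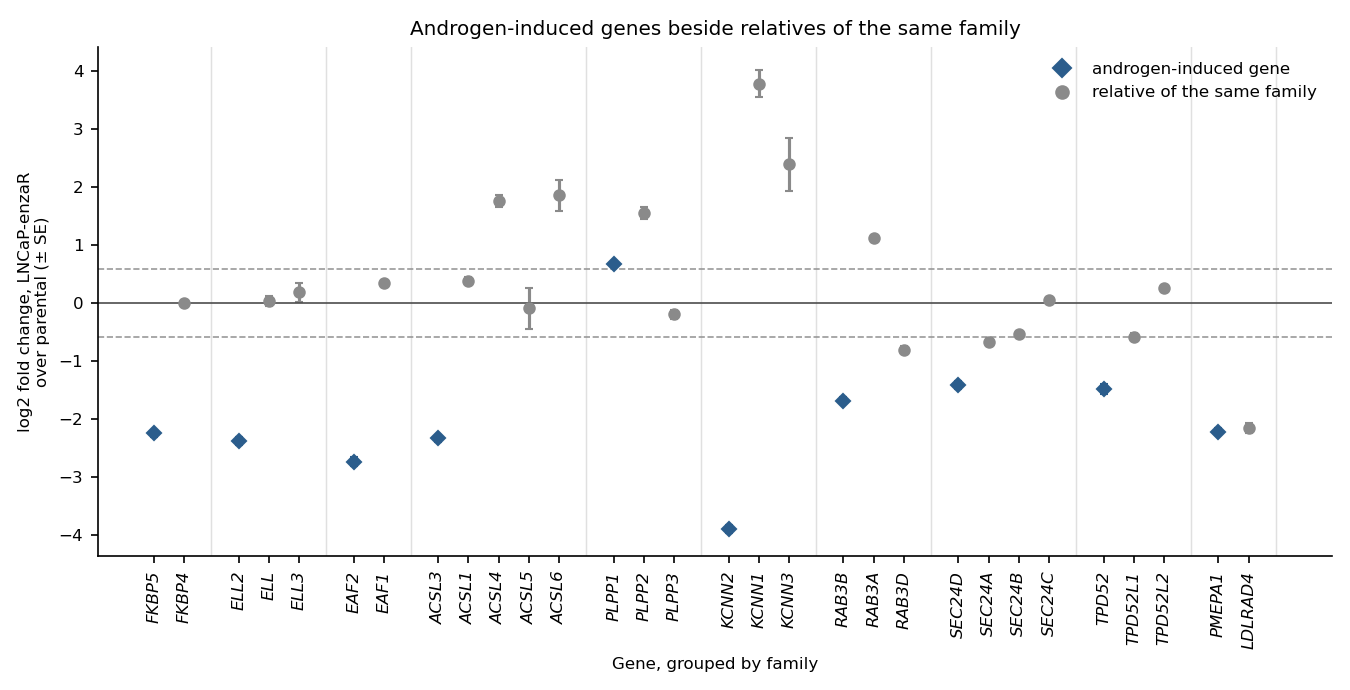
Log2 fold change (vertical axis, ± SE) of androgen-induced genes (diamonds) and relatives of the same family (circles). Shown is a selection, the families of 10 of the 18 genes with relatives, separated by grey lines along the horizontal axis. Dashed lines mark 1.5-fold. FKBP5, ELL2, EAF2 and ACSL3 lie below -2 with relatives near or above 0, and PMEPA1 and LDLRAD4 lie together.

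Levels were compared between genes as CPM per kb of exon. In parental cells SLC45A3 was the highest of the 35 at 99.2 CPM per kb, followed by PLPP1 (81.7), DBI (69.8), ABHD2 (58.9) and SORD (51.0). Of the 35, 33 were above the median level of all genes tested and 11 were in the top 10%. In LNCaP-enzaR, 28 were above the median and 4 were in the top 10%. These 4 were PLPP1 at 131, ABHD2 at 64.0, NDRG1 at 39.9 and SORD at 33.0 CPM per kb, while SLC45A3 was at 3.74 CPM per kb. Exons of other genes cover 32.1% of the exonic bases of MED28, 23.1% of CENPN, 11.9% of NCAPD3 and 10.8% of TPD52, which makes their levels less certain. The lowest parental levels were those of MSMB (0.819) and HERC3 (0.366).

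Genes on either side of each androgen-induced gene gave a view of the chromosomal surroundings. Within 1 Mb, the median of the tested protein-coding neighbours was below 0 on the log2 scale for 22 of the 35 genes. Around the 25 genes that fell, 85 of 355 neighbours (23.9%, some counted for more than 1 gene) fell and 77 rose, against 20.9% lower among all protein-coding genes tested. SLC45A3, at -4.73, lay among neighbours with a median of 0.35, and SORD among neighbours with 0.71. Neighbours were lower around ACSL3 (median -1.02, 2 of 3 lower), DBI (-0.91, 8 of 11 lower), TPD52 (-0.88) and ZBTB10 (-1.25), the latter 2 being neighbours of each other. Around FKBP5, 11 of 24 neighbours fell and the median was -0.46. NDRG1 and PLPP1, which rose, had neighbours with medians of 0.62 and 0.51. Of the 32 genes with at least 3 neighbours, 24 were below the median of their own neighbours.

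**Figure D4:**
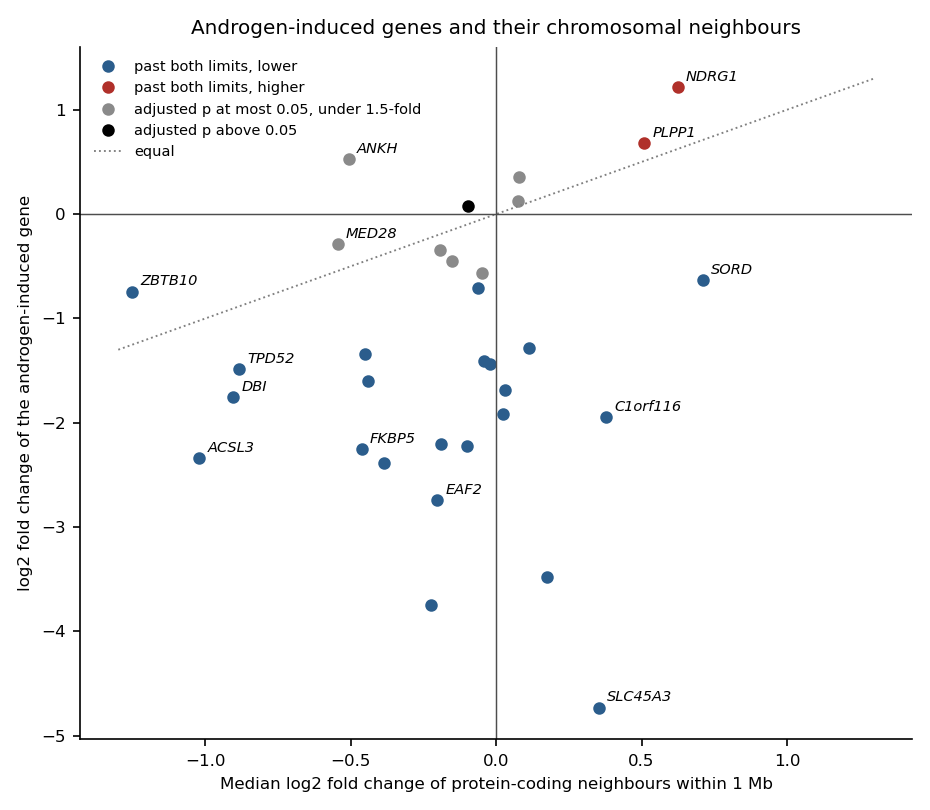
Log2 fold change of each androgen-induced gene (vertical axis) against the median log2 fold change of its protein-coding neighbours within 1 Mb (horizontal axis), for the 32 genes with at least 3 neighbours. The dotted line marks equal values and 24 of the 32 points lie below it.

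In the wider androgen response, genes that fell again outnumbered those that rose. Of 74 other androgen response genes tested, 42 fell, 7 rose and 25 did not pass, and the median difference was -0.67 on the log2 scale. ADAM7, a membrane protein of the ADAM family, averaged 64.8 ± 2.23 CPM in parental and 0.0651 ± 0.0181 CPM in LNCaP-enzaR (-9.92 on the log2 scale), and ADAMTS1, a secreted metalloprotease, averaged 429 ± 10.7 and 25.1 ± 0.780 CPM (-4.10). Among 4 kallikreins 3 fell and 1 did not pass, KLK3 (prostate-specific antigen) at -3.08 and KLK2 at -2.0 on the log2 scale, which lies within the range of the 35 genes. Differences between the lists were not tested.

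**Figure D5:**
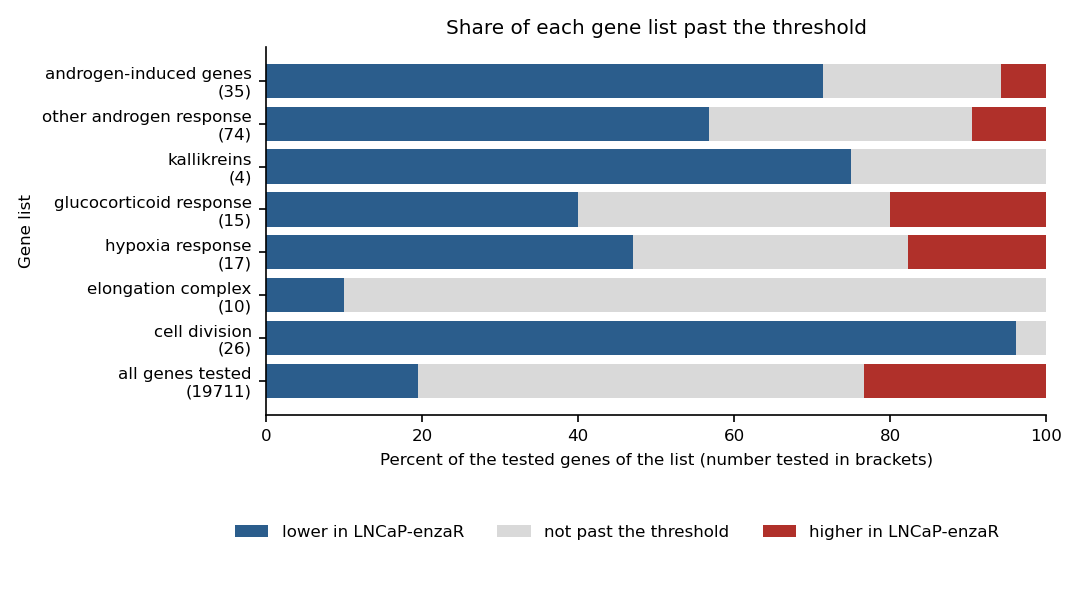
Share of tested genes (horizontal axis, percent) that fell (blue), did not pass (grey) or rose (red) in LNCaP-enzaR, for the 35 androgen-induced genes, 6 other lists and all genes tested (vertical axis). The androgen-induced genes were 71.4% lower and 5.71% higher, and all genes tested 19.5% and 23.3%.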

How the data were processed

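RNA sequencing libraries were made from polyadenylated RNA of 3 parental and 3 LNCaP-enzaR cultures and read as paired ends. The authors trimmed reads with cutadapt, aligned them to GRCh38 with STAR and the GENCODE annotation and counted them with featureCounts, and they deposited raw counts per gene, not normalized. The settings for strand, for reads that map to several places and for counting fragments are not given in the sources used here, so genes with overlapping exons are uncertain. Levels equivalent to 3 counts reflect counting error only, whereas the 95% confidence intervals come from the edgeR fit and include the spread between libraries.

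Groups and replicate numbers came from the sample titles. Counts were tested with edgeR 4.0.16 in R 4.3.3 (filterByExpr, TMM, robust quasi-likelihood F-test, no covariates), with Benjamini-Hochberg adjustment over the 19711 genes tested, which held 99.96% of the counts. Genes passed with adjusted p no higher than 0.05 and at least 1.5-fold, as the study set its limits. The study used DESeq2, which served here (1.42.0) as an alternative. Changes are LNCaP-enzaR over parental, and p-values measure the spread between these libraries. On counts simulated from this comparison (19200 genes tested, 189 changed), 61.5% of genes changed 1.5-fold reached an adjusted p of at most 0.05. So did 82.8% of those changed 2-fold, 100% of those changed 4-fold and 11 unchanged genes, of which 6 also reached 1.5-fold. Recovery past both limits was not computed, and a far larger share of genes passed in the data (42.7%) than was changed in the simulation.

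The 35 genes and all lists were chosen with earlier results of these data known, and the relatives and motifs after the values were seen. Named genes are the 35, the 2 with the smallest p-value in each other list except the marker lists, and a part of the relatives. Some marker, androgen response, hypoxia, glucocorticoid and prostaglandin genes were named outside this rule, after their values were seen. Exon lengths, strands, overlaps and neighbours came from GENCODE 44, where 33 of the 35 had the coordinates of the table. Promoters came from RefSeq and matches to the palindrome from the genome sequence. Alternatives were DESeq2, other scalings and filters, leaving out mitochondrial genes, other fold limits, the replicate number as a block, and leaving out each library.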

Additional observations from a re-analysis of the deposited data

How the results depend on the processing

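In all 14 alternative fits and left-out libraries, 31 of the 35 genes stayed on the same side of the threshold of both limits together. The exceptions were TSC22D3 (-0.60 with library totals alone, past the fold limit), HERC3, ANKH and SORD, as given above, and MSMB was not tested where at least 10 counts were required in every library. Moves across the adjusted p limit alone were not counted, and APPBP2, ABHD2 and HERC3 made them, with the ranges given above. The median log2 fold change of the 35 genes moved from -1.44 to -1.34 with upper-quartile scaling, which put the median of all genes at 0.11, and ranged from -1.49 to -1.40 as each library was left out. Genes past the threshold numbered 8425, with 13074 at no minimum fold change and 5561 at 2-fold. The higher genes among the 35 numbered 5 and 1 under those same limits, elongation complex genes 7 and 0 (1 at 1.5-fold), and luminal markers 8 and 2 (5 at 1.5-fold). At 2-fold, 5 hypoxia response genes passed in place of 11, and with at least 10 counts 1 basal marker in place of 2. DESeq2 called 8321 genes.

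The replicate numbers did not pair the samples, since deviations of same-numbered libraries correlated at -0.065, -0.00041 and -0.051. With the replicate block 8212 genes passed, and of the 35 genes 25 fell and 2 rose. Depth limits MSMB and HERC3 most. With 1 derivative line, resistance, culture history and any drug in the medium cannot be told apart.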
